A study of Mus musculus with 24 samples.

Results

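Homeobox genes encode transcription factors that bind DNA through the homeodomain, and outside the Hox clusters they pattern the head, nervous system, sense organs, limbs, heart and gut of the embryo. The group described here was 48 such genes in 18 subfamilies, chosen by name as homeobox genes outside the Hox clusters and outside the Pax and LIM families. All 48 were found among 21887 mouse protein-coding genes, and they lie at 45 separate loci, because the windows of Dlx1 and Dlx2, of Dlx3 and Dlx4 and of Dlx5 and Dlx6 overlap. A further 46 homeobox genes that the same rule would admit served as a comparison list. Both lists were drawn up with earlier results of these data known, so their counts need not hold for homeobox genes in general.

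In many embryonic and adult tissues such genes are held silent by the Polycomb complex PRC2, which trimethylates lysine 27 of histone H3 (H3K27me3) over long stretches around them. H3K4me1 marks enhancers, and H3K4me2 marks both enhancers and promoters. KDM6A is a demethylase that removes H3K27 methyl groups and is also a subunit of complexes that methylate H3K4, so it acts on both kinds of mark.

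The chromatin immunoprecipitation peak lists came from 4 early-passage mouse small cell lung cancer lines grown from RPP tumours. The 236L and 236R lines (mutant lines) were grown from sgKdm6a tumours, made with a guide RNA that targets Kdm6a, and the 159-1 and 1014 lines (control lines) from sgControl tumours, made with a control guide. The 3 histone marks were mapped in all 4 lines, each with 1 list per line, and KDM6A in 159-1 and 1014 alone, after an added crosslink with 2 mM disuccinimidyl glutarate. Cells for H3K4me2, H3K27me3 and KDM6A were collected 24 h after plating, and no treatment was given. Whether 236L and 236R stem from different animals is not stated, so the spread between lines may be partly technical. The 2 control H3K4me2 lists carry each other's line in their deposited names. Their values are given here by sample label, and swapping them leaves each control pair, and so every call that uses all 4 lines, as it is. The H3K4me2 counts without 1 control line, and the overlap of H3K4me2 with H3K27me3 in each control line, do depend on the choice. With the lists swapped, 29 members still had both marks in both control lines (8.65% of all genes).

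H3K27me3 lists differed most in size, with 13.8 and 30.5 Mb covered in 236L and 236R against 45.4 and 110.3 Mb in 159-1 and 1014, while H3K4me2 covered 76.1 and 73.7 Mb against 85.2 and 87.6 Mb. Line 236L stood apart at macrophage genes. H3K4me1 covered 327 kb summed over the windows of 18 macrophage markers in 236L, 55.1 kb in 236R, 80.1 kb in 159-1 and 78.8 kb in 1014, and H3K4me2 176, 37.2, 47.8 and 49.7 kb. All 18 had some H3K4me2 in 236L, against 14 in 236R, 15 in 159-1 and 14 in 1014. At 11 fibroblast markers H3K4me1 summed to 42.5 and 49.2 kb in 236L and 236R, against 27.7 and 22.5 kb in 159-1 and 1014. At 6 endothelial markers it summed to 31.5 and 45.5 kb, against 45.8 and 49.2 kb. At 9 neuroendocrine markers, which define this tumour type, H3K4me2 summed to 38.3 kb in 236L, 69.4 kb in 236R, 74.5 kb in 159-1 and 83.1 kb in 1014, and H3K27me3 to 22.8, 0, 0 and 0.613 kb. The part of these differences in the results on homeobox genes was not tested. Counts without each line are given only for members with longer or shorter cover of a histone mark over the gene window. No such counts are given for promoters, overlap of marks, sequence marked in the mutant lines alone or genes rich in H3K27me3. The same holds for homeobox classes, groups by KDM6A and the comparison lists. The Y-linked genes Uty, Ddx3y, Eif2s3y and Kdm5d carried H3K4me2 in neither mutant line and in both control lines, so sex chromosomes cannot be told apart from genotype here.

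The main pattern was more H3K4me2 in the mutant lines over the gene window, and not always at the promoter. Among members with an entry in the promoter table, those with the widest gap between groups for that mark were taken, 1 per subfamily. The promoters of these 6 members are shown. Each is the 300 bases from 250 before to 50 after the gene start (RefSeq, GRCm38.p6, the assembly of mm10), written 5' to 3' on the gene's own strand, with CG dinucleotides, the sites of vertebrate DNA methylation and the hallmark of CpG islands, in capitals.
Otx2: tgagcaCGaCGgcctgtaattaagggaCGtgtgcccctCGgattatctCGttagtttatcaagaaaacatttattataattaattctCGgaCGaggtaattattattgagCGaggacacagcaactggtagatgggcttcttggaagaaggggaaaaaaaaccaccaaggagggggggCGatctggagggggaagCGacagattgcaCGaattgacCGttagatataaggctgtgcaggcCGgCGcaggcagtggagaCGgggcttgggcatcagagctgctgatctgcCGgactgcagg
En1: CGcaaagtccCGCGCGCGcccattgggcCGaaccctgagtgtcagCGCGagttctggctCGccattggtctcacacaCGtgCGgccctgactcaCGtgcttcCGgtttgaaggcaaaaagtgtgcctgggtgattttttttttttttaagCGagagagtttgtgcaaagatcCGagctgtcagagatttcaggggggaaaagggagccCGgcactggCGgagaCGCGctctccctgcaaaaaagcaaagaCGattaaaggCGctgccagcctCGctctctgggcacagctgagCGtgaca
Emx2: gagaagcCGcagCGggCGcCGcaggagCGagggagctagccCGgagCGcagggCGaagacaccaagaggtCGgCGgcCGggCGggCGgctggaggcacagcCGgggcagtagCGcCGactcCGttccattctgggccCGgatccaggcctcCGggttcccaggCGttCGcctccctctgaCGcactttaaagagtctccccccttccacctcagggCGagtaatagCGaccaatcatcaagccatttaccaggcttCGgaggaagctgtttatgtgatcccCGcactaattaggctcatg
Six3: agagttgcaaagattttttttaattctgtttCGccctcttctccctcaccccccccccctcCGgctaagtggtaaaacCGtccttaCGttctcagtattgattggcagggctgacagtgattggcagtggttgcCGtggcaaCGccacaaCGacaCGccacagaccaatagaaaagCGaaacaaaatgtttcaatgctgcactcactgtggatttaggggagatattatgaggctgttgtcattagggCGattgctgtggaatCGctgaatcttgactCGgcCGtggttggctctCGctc
Dlx2: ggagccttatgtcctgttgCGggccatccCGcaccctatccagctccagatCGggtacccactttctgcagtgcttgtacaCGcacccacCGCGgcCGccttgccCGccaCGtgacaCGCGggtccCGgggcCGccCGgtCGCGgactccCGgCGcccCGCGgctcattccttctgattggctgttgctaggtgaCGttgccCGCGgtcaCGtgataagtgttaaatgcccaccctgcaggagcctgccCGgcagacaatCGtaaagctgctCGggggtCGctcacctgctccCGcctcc
Barhl2: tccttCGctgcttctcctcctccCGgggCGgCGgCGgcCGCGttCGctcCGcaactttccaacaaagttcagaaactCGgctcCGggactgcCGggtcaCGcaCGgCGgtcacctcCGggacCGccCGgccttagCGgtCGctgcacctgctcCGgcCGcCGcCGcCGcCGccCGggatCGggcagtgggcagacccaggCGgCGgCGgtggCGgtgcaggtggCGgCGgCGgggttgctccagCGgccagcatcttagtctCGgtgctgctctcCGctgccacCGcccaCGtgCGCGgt
The Otx2 promoter lies at chr14:48665060-48665359 on the minus strand and En1's at chr1:120602237-120602536 on the plus strand. Those of Emx2 (chr19:59458440-59458739, plus strand) and Six3 (chr17:85620584-85620883, plus strand) precede forebrain regulators. The Dlx2 promoter lies at chr2:71546705-71547004 and the Barhl2 promoter at chr5:106458117-106458416, both on the minus strand.

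These promoters held 16 (Otx2), 23 (En1), 26 (Emx2), 14 (Six3), 29 (Dlx2) and 42 (Barhl2) CG dinucleotides. Promoters of 32 of the 48 members were in the table, with 1 promoter per gene taken as the one with the most H3K4me2 over all 4 lines. Their median was 21 CG per promoter, against 14 over 17492 genes. The motif TAATTA, a core sequence that many homeodomains bind and its own reverse complement, occurred in 4 of the 32 (12.5%), against 4.59% of all promoters. In Otx2 it occurred 3 times, counting overlapping matches, and in Emx2 once. The E-box CAGATG, read on both strands, occurred in 5 of the 32 (15.6%) and in 14.6% of all promoters, and in none of the 6 shown. A match is only a description of the letters.

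At several of these starts both kinds of mark covered the same bases. The Otx2 promoter was covered by H3K27me3 over all 300 bases in every line, and by H3K4me2 and H3K4me1 over all 300 bases in both mutant lines and 0 in both control lines. Emx2 showed the same layout for H3K4me2 and H3K4me1, with H3K27me3 on 300 and 198 bases in 236L and 236R and 300 in each control line. En1 had both H3K4 marks on all 300 bases in both mutant lines. In the control lines its H3K4me1 was 0, and its H3K4me2 was 0 bases in 159-1 and 300 in 1014. Six3, by contrast, had no H3K27me3 on its promoter in either mutant line and 300 bases in each control line. Dlx2 had H3K4me2 over its whole promoter in all 4 lines, so its longer H3K4me2 in the mutant lines lay elsewhere in the window. The Six3 and Barhl2 promoters had H3K4me2 on 300 bases in both mutant lines and in 1014, and on 0 in 159-1.

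Over the 32 promoters, H3K4me2 covered at least 150 of the 300 bases in 30 (236L) and 31 (236R), against 19 (159-1) and 24 (1014). Over all 17492 genes the shares were 65.6 and 64.4% in 236L and 236R against 63.8 and 62.7% in 159-1 and 1014. Both mutant lines and neither control line carried it at 6 promoters (18.8%), those of Nkx2-2, Nkx2-3, Otx2, Emx2, Msx2 and Vax1, against 1.01% of all genes. KDM6A touched none of these 6 promoters in either control line, but its absence was common among the 32. It covered at least 150 bases at 12 of the 32 in 159-1 and at 7 in 1014, against 40.0 and 37.0% of all genes. H3K4me1 covered 24 and 25 of the 32 promoters in 236L and 236R, against 17 and 12 in 159-1 and 1014. Over all genes its shares were also higher in the mutant lines, 22.1 and 19.8% against 13.5 and 13.3%. H3K27me3 covered 25 and 16 in the mutant lines against 22 and 28 in the control lines, so the groups overlapped for that mark. Over all genes its shares were 7.43 and 5.05% in 236L and 236R against 6.81 and 10.8% in 159-1 and 1014.

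**Figure D1:**
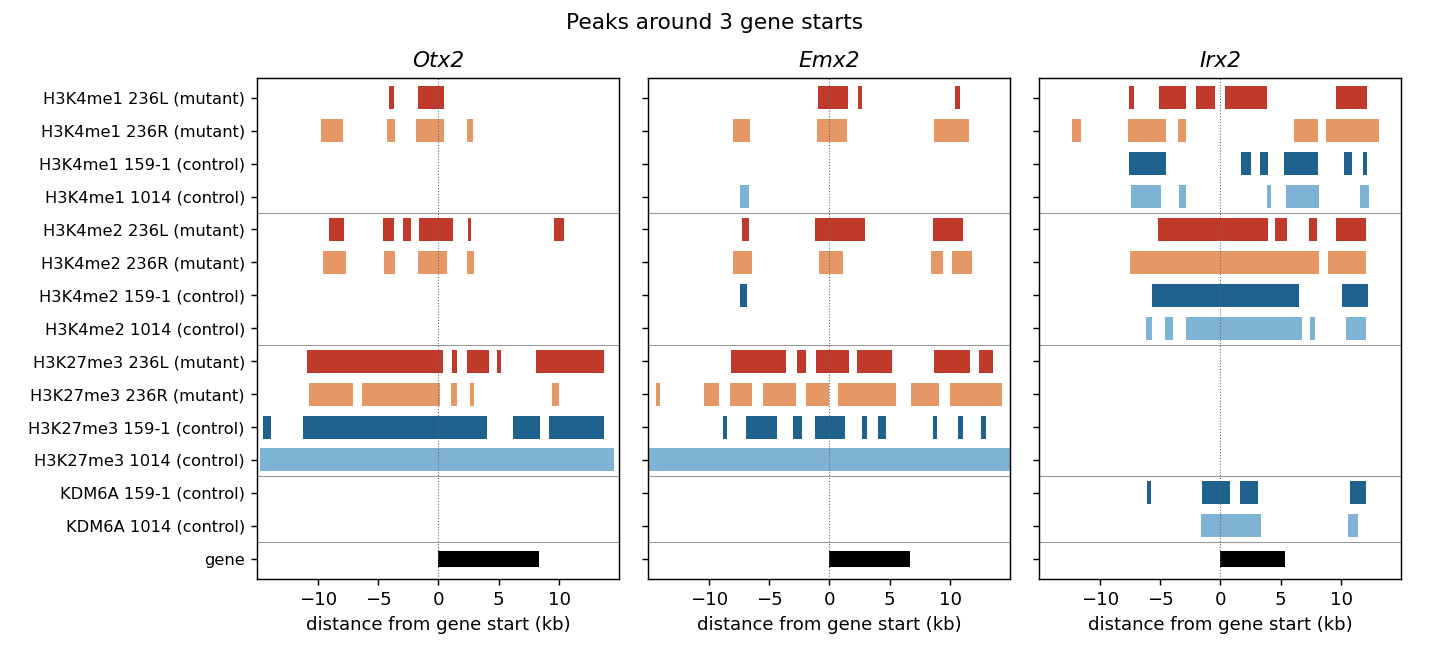
Peaks (bars) of each mark and line within 15 kb of the starts of Otx2, Emx2 and Irx2, with transcription to the right, mutant lines above control lines and the gene body in black. At Otx2 H3K4me2 peaks overlap H3K27me3 peaks in the mutant lines and are missing in the control lines, while Irx2 has H3K4me2 in all 4 lines, KDM6A in both control lines and no H3K27me3.

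For every gene, the length under peaks was measured in a window that spans the gene and 10 kb beyond either end. A gene was called longer or shorter in the mutant lines where all values of one group exceeded all values of the other by at least 2 kb. With 2 lines against 2, an exact two-sided permutation test cannot give a p below 0.333, so no single gene can pass 0.05, and each count is set beside the percentage of all 21887 genes called by the same rule.

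H3K4me2 was longer in both mutant lines at 19 of the 48 homeobox genes, shorter at 0 and neither at 29. Over all genes 1.36% were longer and 6.37% shorter, so the members ran against the direction of the whole lists, in which the mutant lines had less H3K4me2. Longer cover was found at regulators of forebrain and eye (Otx2, Emx2, Six3, Vax1, Vax2, Gsx2, Dlx1, Dlx2, Dlx5 and Dlx6), of midbrain, hindbrain and sensory neurons (En1, Barhl2 and Tlx3), and of skeleton, spleen, limb and heart (Msx2, Nkx3-2, Nkx2-3, Tlx1, Pitx1 and Nkx2-5). Summed over the 45 loci (1438 kb), H3K4me2 covered 18.97 and 19.9% in 236L and 236R, against 10.97 and 11.99% in 159-1 and 1014.

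Otx2, which specifies forebrain and midbrain and is needed in the eye, had 6.74 kb in 236L and 5.82 kb in 236R, against 0 kb in 159-1 and 0 kb in 1014. Emx2, a regulator of the cerebral cortex and urogenital tract, had 7.14 and 6.10 kb in the mutant lines, against 0.506 and 0 kb in the control lines. Each mutant line thus had several peaks at both genes, and the control lines a single short one or none. En1, which organises the midbrain-hindbrain boundary and the ventral limb, had 7.65 and 7.19 kb in 236L and 236R, against 1.52 and 1.45 kb in 159-1 and 1014. Pitx1 (chr13:55825044-55836190), which gives hindlimb its identity and acts in the pituitary, had 6.05 and 6.82 kb against 0 and 0.630 kb. For each of these 4 genes the gap between the groups was over 5 kb, more than the spread within either group.

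Six3, a forebrain and eye determinant, had 8.56 and 11.2 kb in 236L and 236R, against 0.858 and 3.60 kb in 159-1 and 1014. The neighbours Dlx1 and Dlx2, which drive the fate of forebrain interneurons, started from more. Dlx1 had 11.4 and 9.26 kb against 3.69 and 4.58 kb, and Dlx2 had 10.2 and 9.74 kb against 4.26 and 4.86 kb. Their windows overlap, so they are not independent. Barhl2, a factor of retinal and diencephalic neurons, had 5.85 and 8.35 kb in the mutant lines against 0 and 1.14 kb in the control lines.

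Among genes of the skeleton and viscera, Nkx3-2, needed for vertebrae and spleen, had 9.13 and 8.22 kb in 236L and 236R, against 2.15 and 3.94 kb in 159-1 and 1014. Msx2, a factor of skull and limb bud, had 4.75 and 6.77 kb against 0.378 and 0.572 kb. Nkx2-3, required for spleen and gut lymphoid tissue, had 8.49 and 4.99 kb against 0.835 and 0 kb. Vax1, a gene of the ventral forebrain and optic nerve, had 5.68 and 4.30 kb against 0.378 and 0 kb. In all 4 the lowest mutant value lay above the highest control value, by the rule that chose them. At Nkx2-3 236L was well above 236R. The other 7 longer members were separated by 2.01 to 3.40 kb.

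**Figure D2:**
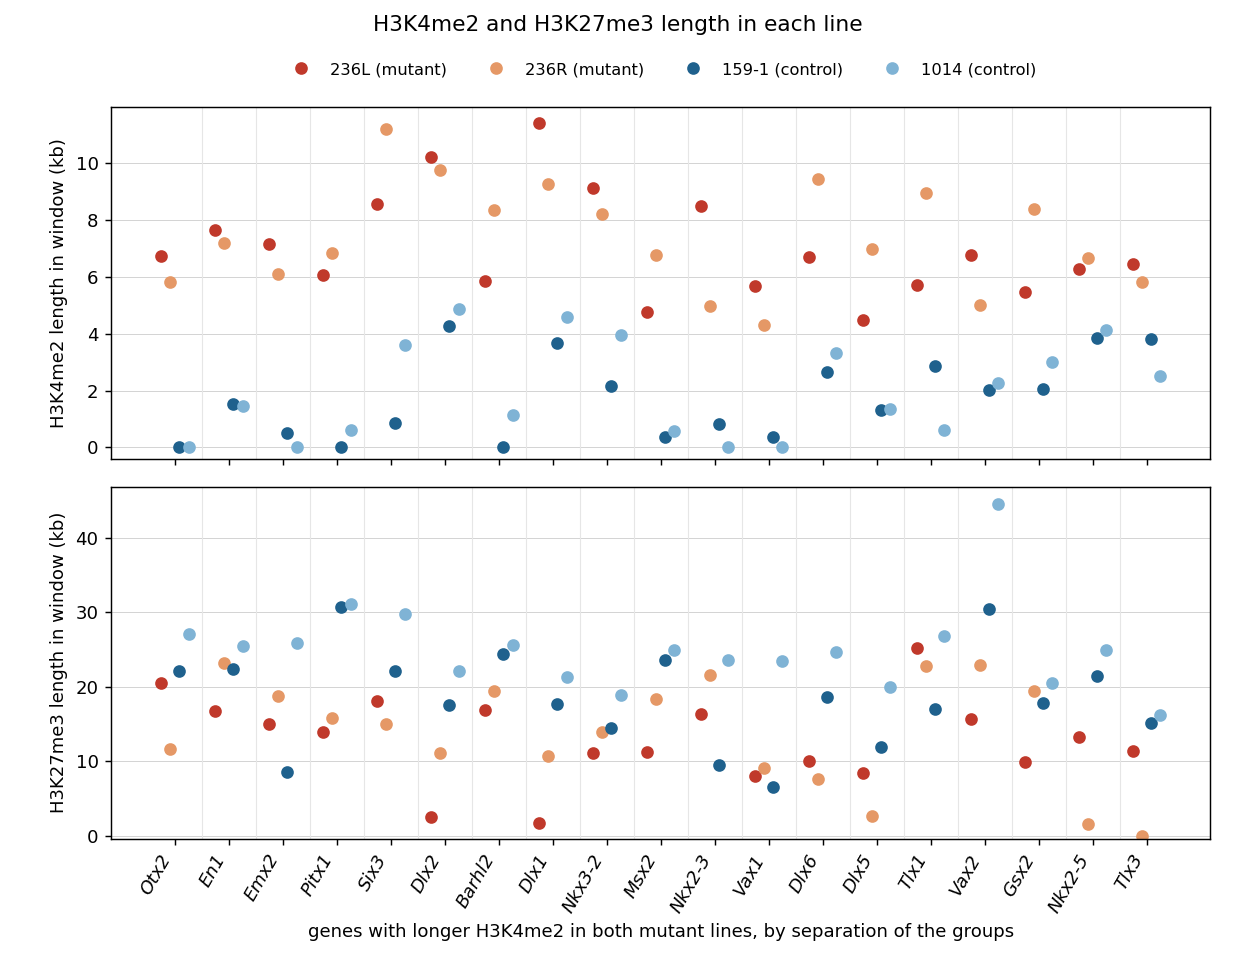
Length in kb of H3K4me2 (top) and H3K27me3 (bottom) in the window of each of the 19 genes called longer for H3K4me2, 1 point per line, ordered by the gap between groups. The mutant points lie above the control points at every gene for H3K4me2, by the rule that chose the genes, while for H3K27me3 they lie below by at least 2 kb at 11 of the 19.

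Leaving out a line can only add members to a call. Without 236L H3K4me2 was longer at 25 (2.66% of all genes) and shorter at 1 (9.65%), and without 236R at 23 (10.3%) and 1 (11.5%). Without 159-1 the counts were 19 (2.14%) and 2 (9.18%), and without 1014 23 (2.09%) and 0 (9.65%). Nkx2-5 was not called with 50 kb flanks, at a q of at most 0.001 or at equal covered length, and Gsx2, Tlx3 and Vax2 were not called around gene ends. A moderated test across genes (limma on log2(kb + 1), pseudocount 1 kb) called no member and no gene at an adjusted p of 0.05 for any mark. At an unadjusted p under 0.05, H3K4me2 was longer at 23 members (4.48% of the genes tested) and shorter at 1 (11.7%), H3K4me1 longer at 12 (6.05%) and shorter at 0 (3.82%), and H3K27me3 longer at 1 of 47 (0.956%) and shorter at 2 (12.1%). Otx2 had the lowest such p for H3K4me2 among the members, with a log2 fold change of 2.86 on that scale (SE 0.19) and a limma adjusted p of 0.126.

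The strongest H3K4me2 peak of a member also ranked higher within its own list in the mutant lines, by the authors' deposited −log10 p. Only members with a peak were ranked, 48 in 236L, 47 in 236R, 45 in 159-1 and 44 in 1014. Their median strongest peak stood at the 86.7th percentile in 236L and the 93.4th in 236R, against the 80.5th in 159-1 and the 78.6th in 1014. The lists differ in length, so these ranks show position within each list and no change in height. None is given for all genes.

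H3K4me1 was longer in both mutant lines at 13 members (5.30% of all genes), shorter at 1 (7.45% of all genes) and neither at 34. All 13 were also among the 19 with longer H3K4me2, which is 68.4% of those 19. Over all genes, 174 were longer for both marks, or 15.0% of the 1160 longer for H3K4me1 and 58.4% of the 298 longer for H3K4me2. The sample titles give a further set of inputs, InputB, for both genotypes, and name no mark or batch for it. No input is titled for H3K4me1, so this mark may be a batch apart from the other lists.

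The widest gap was at Nkx2-3, with 8.58 and 9.03 kb of H3K4me1 in 236L and 236R, against 0 and 0.658 kb in 159-1 and 1014. En1 had 7.88 and 7.55 kb against 0.422 and 0.827 kb, and Vax1 4.91 and 5.20 kb against 0 and 0 kb. Vax2, which sets the ventral retina, had 8.00 and 6.64 kb against 2.46 and 2.41 kb. In these 4 genes 236L and 236R lay close to each other. Dlx5, a factor of facial and limb skeleton, had 4.86 and 6.35 kb in 236L and 236R against 0.979 and 0.349 kb in 159-1 and 1014. Tlx1, required to form the spleen, had 6.01 and 12.3 kb against 1.27 and 2.47 kb, with 236R well above 236L. Dlx1, Dlx2, Nkx3-2, Pitx1, Otx2 and Emx2 were separated by 2.64 to 4.68 kb. Msx2 was the remaining one.

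The H3K4me1 count moved more with single lines. Without 236L 26 members were longer (10.1% of all genes) and 2 shorter (12.6%), and without 236R 18 (29.7%) and 6 (15.2%). Without 159-1 the counts were 23 (7.86%) and 1 (12.3%), and without 1014 15 (9.03%) and 3 (8.72%). Dlx5, Msx2, Pitx1 and Vax2 were not called at a q of at most 0.001, Otx2, Emx2, Msx2 and Pitx1 with 50 kb flanks, and Dlx2, Nkx3-2, Pitx1 and Vax2 around gene ends. Summed over the loci, H3K4me1 covered 16.1 and 21.9% in 236L and 236R, against 12.5 and 9.29% in 159-1 and 1014.

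Meox1 (chr11:101877510-101894354), a factor of somites and the vertebral column, went the other way. It had 4.03 and 9.27 kb of H3K4me1 in 236L and 236R, against 11.9 and 13.1 kb in 159-1 and 1014, and was the only member called shorter for that mark. It was also the only member called longer for H3K27me3 (0.425% of all genes), with 4.71 and 27.7 kb in 236L and 236R against 0 and 0 kb in 159-1 and 1014. By the rule of the calls the groups did not overlap for either mark, but 236R had several times as much H3K27me3 as 236L. Its H3K4me2 was 1.98 and 2.19 kb against 2.95 and 2.18 kb, with overlapping groups. At peaks with a q of at most 0.001 neither Meox1 call remained.

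H3K27me3 was shorter in both mutant lines at 20 members, longer at 1 and neither at 27, against 6.43% of all genes shorter. That share has to be read against how much of the mark a gene had to lose. Each control line carried at least 10 kb at 29 of the 48 members (60.4%) but at 4.43% of all genes. Of those 29 members, 20 (69.0%) were called shorter, against 73.9% of all 970 genes with that much, so the members were near the background of marked genes. Longer H3K27me3 was called at 0 of the 29 and at 0.103% of the 970. The stratum was set on control H3K27me3 itself, which raises the share shorter in it. None of the 19 members outside it was called shorter.

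Pitx1 had the widest gap, with 13.9 and 15.9 kb in 236L and 236R against 30.7 and 31.1 kb in 159-1 and 1014, where the mark filled the window or nearly so. Emx1, a cortical factor, had 12.1 and 3.10 kb against 23.0 and 30.4 kb. Nkx2-2, which specifies ventral neural tube and islet cells, had 16.0 and 11.8 kb against 25.7 and 37.3 kb. Alx4, a factor of limb and face, had 4.26 and 7.87 kb against 17.2 and 30.8 kb. In these genes the mark covered less of the window but was present in both mutant lines. Nkx2-5, the heart determinant, had 13.3 and 1.56 kb in 236L and 236R against 21.4 and 24.9 kb in 159-1 and 1014. Vax2 had 15.6 and 22.9 kb against 30.4 and 44.6 kb, and Dlx1 1.62 and 10.7 kb against 17.7 and 21.3 kb. Dlx6, Gbx1, Irx1, Six6 and Dlx2 were separated by 6.39 to 8.62 kb, and the other 8 by 3.42 to 5.65 kb. At equal covered length 15 of the 20 were still called (1.45% of all genes), and Emx1, Gbx1, Irx1, Dlx5 and Nkx6-1 were not. The difference in means, mutant minus control, was then -9.48 kb at Emx1 (-19.1 kb with all peaks), -0.118 kb at Gbx1 (-11.7 kb with all peaks) and 0.552 kb at Irx1 (-12.8 kb with all peaks).

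The H3K27me3 result depended on the scale, since the lists differ up to several fold in size. Over the 45 loci H3K27me3 covered 32.8 and 33.2% in 236L and 236R against 40.5 and 63.7% in 159-1 and 1014, a difference in means of -19.1 percentage points. Trimmed to an equal covered length by the deposited −log10 p, the lists covered 32.8 and 27.5% against 32.9 and 51.9%. As a share of all sequence in the list the direction turned, with 3.43 and 1.56% in 236L and 236R against 1.29 and 0.831% in 159-1 and 1014. The loci of these genes thus made up more of the shorter mutant lists, while less of their sequence was covered. At equal covered length 2 members were called longer (0.877% of all genes). Without 236L the counts were 23 shorter (6.99% of all genes) and 1 longer (2.12%), and without 236R 27 (10.1%) and 6 (4.02%). Without 159-1 they were 34 (16.9%) and 1 (0.471%), and without 1014 20 (7.12%) and 7 (1.00%). The counts thus moved most without 159-1 for shorter members, and without 1014 or 236R for longer ones.

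**Figure D3:**
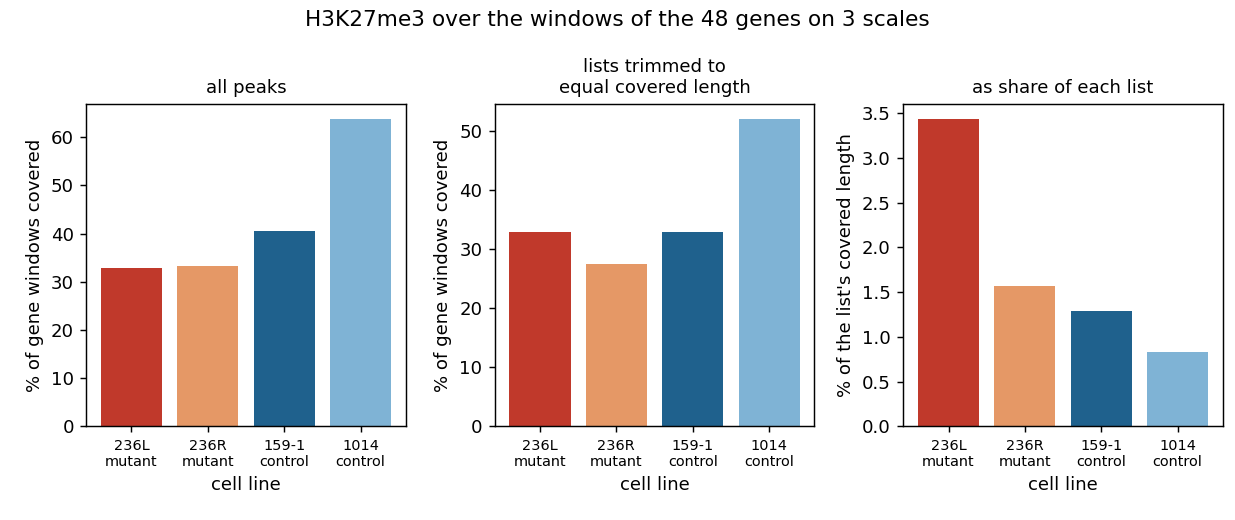
H3K27me3 over the windows of the 48 genes in each line, as percent of window sequence with all peaks (left), after trimming each list to an equal covered length (middle), and as percent of each list's own length (right). Mutant lines (left bars) lie below both control lines with all peaks, come level with 159-1 for 236L at equal length (32.8% in 236L against 32.9% in 159-1), and lie above both as a share of the list.

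Both marks often shared the same bases at these genes. H3K4me2 and H3K27me3 peaks overlapped in both mutant lines at 37 members (77.1%), against 7.58% of all genes. They overlapped in both control lines at 29 members (60.4%), against 8.58% of all genes. At a q of at most 0.001 this control count was 23 (2.64% of all genes). By single line, 46 members had an overlap in 236L and 38 in 236R, against 31 in 159-1 and 39 in 1014. The groups thus overlapped in that count. Over all 21887 genes the counts by line were 3734, 2546, 2183 and 3174. The mean overlap per member was 3.96 and 3.22 kb in 236L and 236R, against 1.31 and 2.29 kb in 159-1 and 1014. Peak lists cannot show whether the marks share a cell or an allele.

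The 6 members with the most overlap in the lower control line were Gsx1, Dlx2, Nkx2-5, Nkx2-2, Irx1 and Gbx2. Gbx2, which sets the anterior hindbrain, had 7.25 and 8.16 kb of doubly marked sequence in 236L and 236R against 3.50 and 6.05 kb in 159-1 and 1014. Nkx2-2 had 6.14 and 6.85 kb against 3.52 and 6.30 kb. Gsx1, a hypothalamic and forebrain factor, had 3.83 and 5.12 kb against 4.36 and 5.60 kb. In Nkx2-2 and Gsx1 the groups overlapped, and in Gbx2 they did not. Nkx2-5 (5.88 and 0.338 kb against 3.83 and 4.11 kb) and Dlx2 (2.47 and 5.44 kb against 4.21 and 4.86 kb) differed more between the mutant lines than between the groups. Irx1 had 1.15 and 0 kb in the mutant lines against 3.51 and 3.60 kb in the control lines.

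H3K4me2 sequence present in both mutant lines and neither control line summed to 76.2 kb in the member windows, and 92.4% of it lay in H3K27me3 of both control lines. Over the genome such sequence summed to 3509 kb, of which 26.8% lay in H3K27me3 of both control lines. In the mutant lines themselves 83.0% (236L) and 74.3% (236R) of the 76.2 kb was still under H3K27me3. H3K4me2 sequence shared by all 4 lines summed to 102 kb in the windows, with 47.4% in control H3K27me3, and H3K4me2 in both control lines and neither mutant line to 10.3 kb. Sequence of the first kind was longest at Pitx1 (5.08 kb), Six3 (5.07 kb), Otx2 (4.70 kb) and Barhl2 (4.55 kb).

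Among the 29 members with at least 10 kb of H3K27me3 in each control line, H3K4me2 was longer in both mutant lines at 16 (55.2%), against 17.6% of all 970 such genes. H3K4me1 was longer at 10 of the 29 (34.5%), against 20.3% of the 970. Neither mark was shorter at any of the 29 members, against 1.13% of the 970 for H3K4me2 and 2.27% for H3K4me1. Of the 19 members with less control H3K27me3, 3 were longer for H3K4me2 and 3 for H3K4me1. Of the 19 members longer for H3K4me2, 11 (57.9%) were also shorter for H3K27me3, which is 55.0% of those 20. Over all genes 135 met both calls, or 45.3% of the genes longer for H3K4me2. The other 8 longer members (Nkx2-3, Nkx3-2, Otx2, Emx2, En1, Gsx2, Tlx1 and Vax1) were not called for H3K27me3. At En1, for instance, H3K27me3 was 16.8 and 23.2 kb in 236L and 236R against 22.4 and 25.5 kb in 159-1 and 1014.

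**Figure D4:**
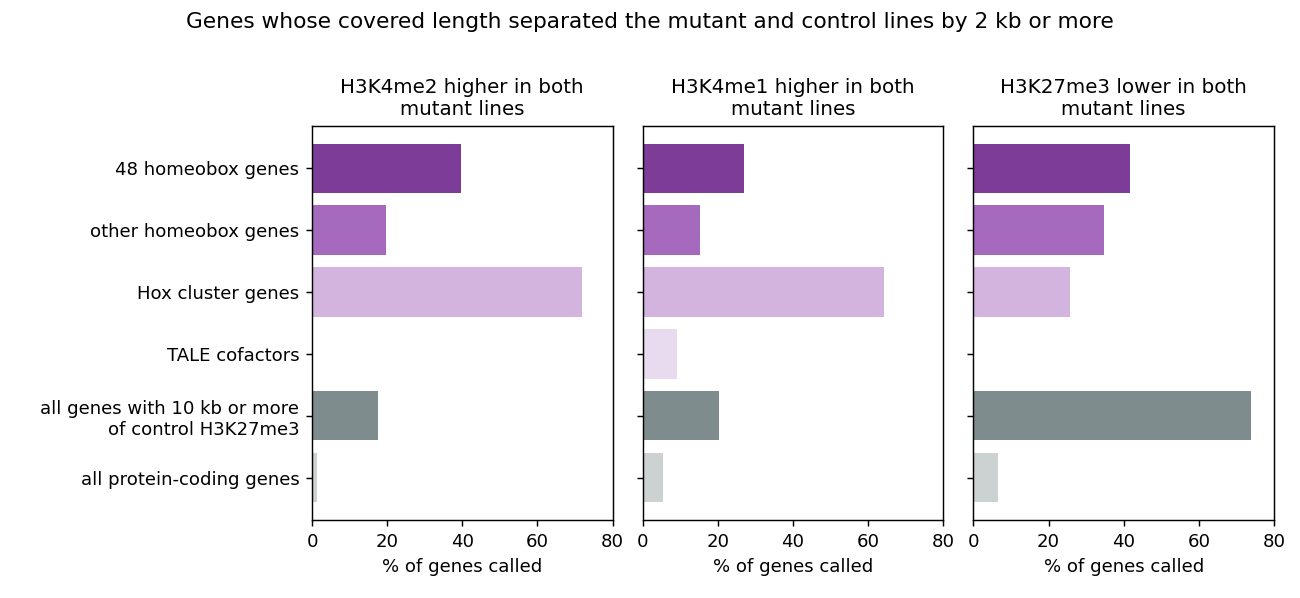
Percent of genes called by the 2 kb rule for longer H3K4me2, longer H3K4me1 and shorter H3K27me3 in both mutant lines, for the 48 genes, 3 comparison lists, all genes with at least 10 kb of control H3K27me3, and all protein-coding genes. For H3K4me2 the 48 genes stand at 39.6% against 17.6% of the H3K27me3-marked genes and 1.36% of all genes, while for H3K27me3 they stand at 41.7%, under the 73.9% of marked genes.

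The homeobox classes differed in these counts. NK-like genes (Dlx, Nkx, Emx, Vax, En, Msx, Barhl and Tlx) held 15 of the 19 members with longer H3K4me2, out of 24. The mean share of their windows under H3K4me2 was 22.9 and 23.6% in 236L and 236R, against 9.49 and 9.86% in 159-1 and 1014. Paired-like genes outside Pax (Otx, Pitx, Alx and Phox2) had 2 of 7 longer, the sine oculis class (Six2, Six3 and Six6) 1 of 3 and the Hox-related Gbx, Gsx, Meox and Cdx genes 1 of 8. The Iroquois genes (Irx), which pattern lung, heart, limb and neural tube, had 0 of 6, with mean shares of 26.0 and 26.6% in the mutant lines against 26.99 and 27.6% in the control lines. The difference between classes was not tested.

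Within the NK-like class both members of the Vax and Tlx pairs were longer for H3K4me2, as were 4 of 6 Dlx and 3 of 6 Nkx genes. Vax1 and Vax2 averaged 18.2 and 13.6% in 236L and 236R against 2.88 and 2.42% in 159-1 and 1014. The Dlx genes averaged 26.3 and 31.0% against 12.3 and 14.2%. In the Emx, En, Msx and Barhl pairs 1 gene was longer and the other was not. En2, the close relative of En1, had 6.32 and 6.44 kb in the mutant lines against 6.04 and 6.40 kb in the control lines. H3K4me1 was longer at 11 of 24 NK-like and 2 of 7 paired-like members and at none of the others. H3K27me3 was shorter at 14 of 24 NK-like, 2 of 7 paired-like, 2 of 3 sine oculis class, 1 of 8 Hox-related and 1 of 6 Iroquois members.

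The Cdx genes, which specify intestine, were covered unevenly. Cdx2, an intestinal and trophectoderm factor, had 6.48 and 11.3 kb of H3K4me2 in 236L and 236R against 9.82 and 14.8 kb in 159-1 and 1014, and 18.98 and 16.8 kb of H3K27me3 against 1.36 and 16.6 kb. The groups overlapped for H3K4me2 and were 0.151 kb apart for H3K27me3.

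**Figure D5:**
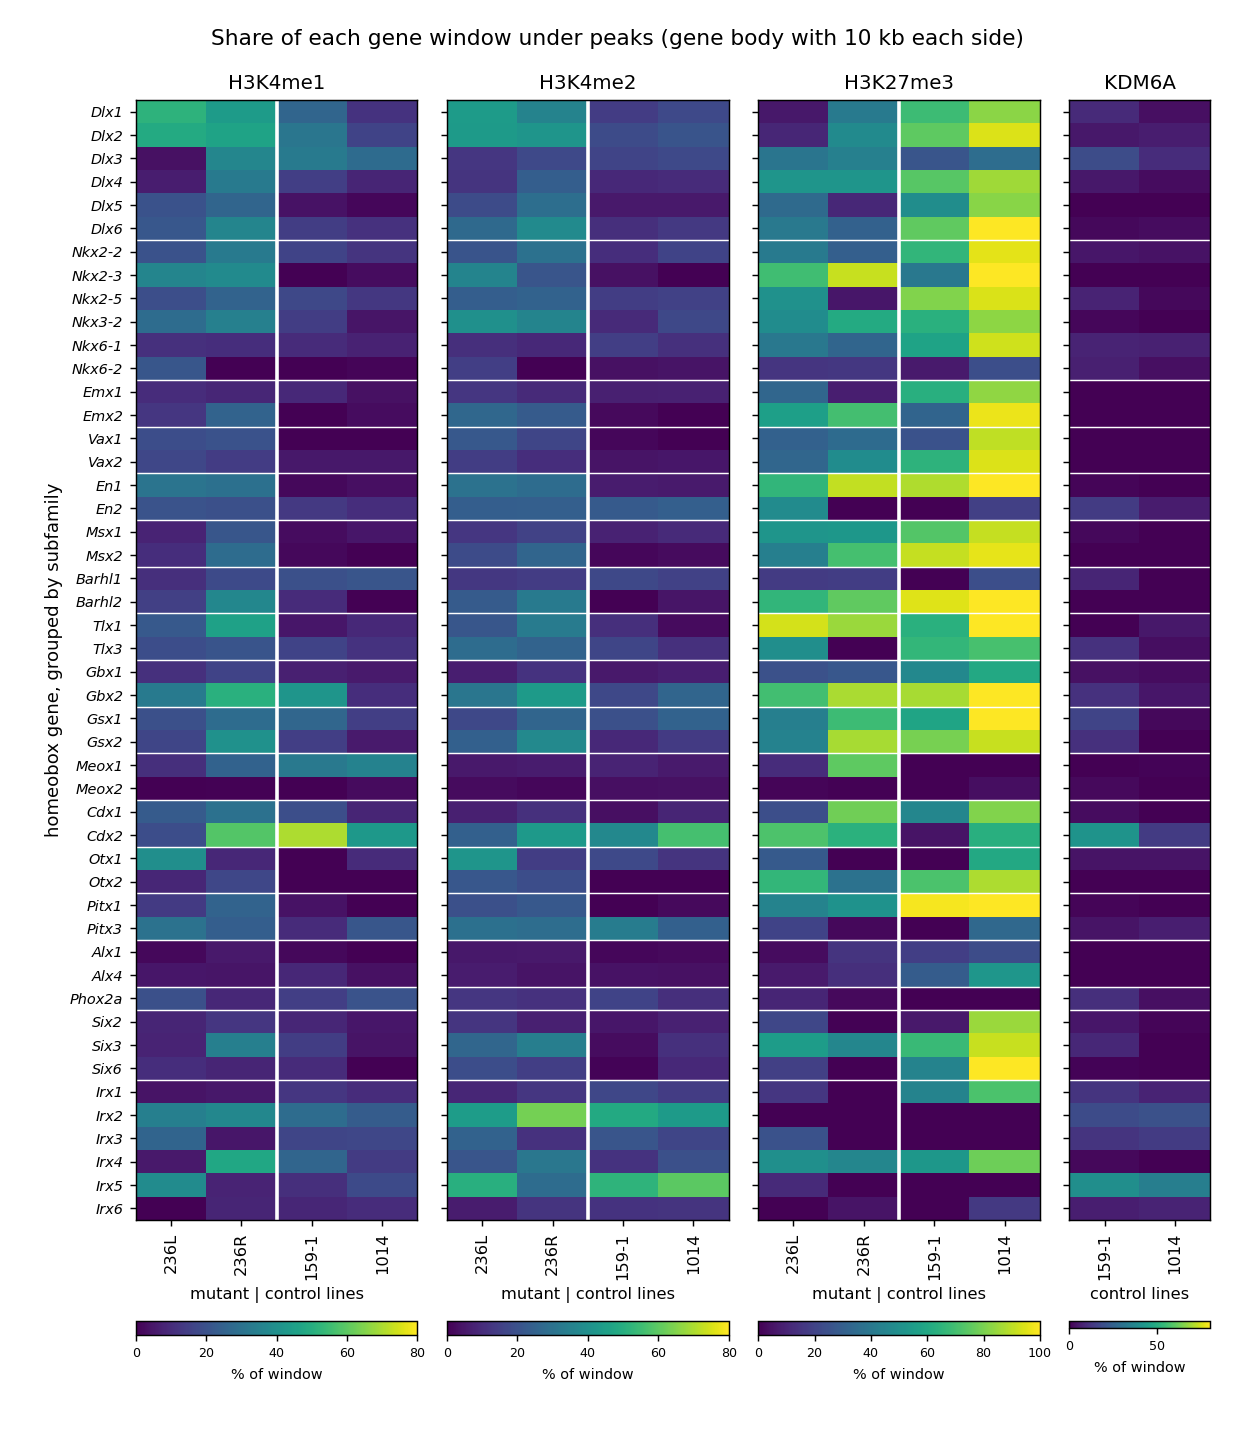
Percent of each gene's window under peaks of the 3 histone marks and KDM6A, genes in rows by subfamily and lines in columns, mutant lines left of control lines, with color scales of 0 to 80% (H3K4me1, H3K4me2 and KDM6A) or 0 to 100% (H3K27me3). Dark cells mean little or no cover and yellow cells the most. For H3K4me2, 15 of the 24 NK-like genes (Dlx1 to Tlx3) were longer in both mutant lines, seen as lighter mutant than control cells, while Irx2 and Irx5 are covered in all 4 lines and have little or no H3K27me3.

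KDM6A was present in both control lines at 5 of the 19 members longer for H3K4me2, against 19 of the other 29. In all it had a peak in both control lines at 24 of the 48 windows (50.0%), against 62.3% of all genes, in 1 line at 13 and in neither at 11. Counting only peaks with a q of at most 0.001, 12 members (25.0%) had it in both lines, against 42.5% of all genes. The 8 members with the longest KDM6A cover in the lower line included 5 Iroquois genes. Irx5 had 9.33 kb in 159-1 and 8.08 kb in 1014, Irx2 (chr13:72624430-72634196) 5.46 and 5.87 kb, Irx3 2.80 and 3.19 kb, Irx1 3.04 and 2.00 kb and Irx6 1.79 and 2.13 kb. Irx2, Irx3 and Irx5 had 0 kb of H3K27me3 in both control lines. The other 3 were Cdx2 with 10.8 and 3.67 kb, Dlx3, an epidermal and placental factor, with 4.69 and 2.57 kb, and Nkx6-1, a beta-cell and motor neuron factor, with 2.04 and 1.87 kb.

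H3K4me2 was longer at 8 of the 11 members with KDM6A in neither control line (1.57% of all such genes), at 6 of the 13 with it in 1 (3.67%) and at 5 of the 24 with it in both (0.939%). The difference between these groups of members was not tested. The median member of the first group had 17.2 and 25.6 kb of H3K27me3 in 159-1 and 1014, and that of the last group 8.98 and 17.5 kb, so the 2 features went together and their parts were not separated. Of the sequence with H3K4me2 in both mutant lines and neither control line, KDM6A covered 3.32% in 159-1 and 1.78% in 1014 in the member windows, close to the 3.03 and 1.66% over the whole genome. Of H3K4me2 sequence shared by all 4 lines it covered 47.9 and 31.6% in the member windows, against 41.6 and 37.0% over the genome. No KDM6A library of a mutant line was used.

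Other homeobox lists gave counts of their own under the same calls. Of the 46 other homeobox genes, H3K4me2 was longer at 9 (19.6%) and shorter at 1 (2.17%), against 1.36 and 6.37% of all genes. H3K4me1 was longer at 7 (15.2%) and shorter at 3 (6.52%), against 5.30 and 7.45% of all genes. H3K27me3 was shorter at 16 (34.8%) and longer at 0, against 6.43 and 0.425% of all genes. Of the 39 Hox cluster genes, whose windows overlap heavily, H3K4me2 was longer at 28 (71.8%) and shorter at 1 (2.56%). Longer H3K4me2 was thus more frequent there than among the 48 members (39.6%). H3K4me1 was longer at 25 Hox genes (64.1%) and shorter at 1 (2.56%), and H3K27me3 was longer at 7 (17.9%) and shorter at 10 (25.6%). Of 11 TALE cofactor genes (Meis, Pbx and relatives, partners of Hox proteins), 0 were longer for H3K4me2 and 3 (27.3%) were shorter. For H3K4me1, 1 (9.09%) was longer and 4 (36.4%) were shorter, and none was called for H3K27me3 in either direction. These lists were compared by counts and percentages alone.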

How the data were processed

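The submitters' processing notes name the aligner Bowtie2 2.4.2, the peak caller MACS3 3.0.0a7 and the build mm10. How duplicates were handled, which control track was used and the calling threshold: not given in the sources used here. Of 24 samples, 14 had a peak list and the 10 inputs had none used here. For each broad peak the authors deposited its position, a score, a fold enrichment (a linear ratio), a −log10 p and a −log10 q. The score was not used. The p and q, the authors' own values, were used to order or select peaks inside 1 list and never between lists. Fold only broke ties in p when lists were trimmed. Lists hold no read counts, so the depth of the libraries is unknown and precision rests on the 2 lines per group.

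Overlapping peaks of a library were merged on chromosomes 1 to 19, X and Y in Python 3.11.15, and 337 peaks on other contigs over all lists were set aside. Gene positions and promoters came from RefSeq (GRCm38.p6). Calls needed a gap of 2 kb between groups. Alternatives were 50 kb flanks, windows of 2.5 kb around gene ends with a gap of 1 kb, peaks with q of 0.001 or less, equal covered length, other gaps, leaving out each line, and limma 3.58.1 (mean of at least 0.5 kb). The cover and call steps were tested on simulated data. Members and lists were chosen with earlier results of these data known. For each mark up to 12 members per direction were named by the size of the gap, for KDM6A the 8 with the longest cover in the lower line, and for doubly marked sequence the top 6.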

Additional observations from a re-analysis of the deposited data

How the results depend on the processing

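The H3K4me2 count of 19 longer members stayed between 17 and 28 under other windows, filters, list lengths and merged loci, except that 4 remained with a 5 kb gap and limma called 0. Of all genes, 13.9% were longer for H3K4me2 with any gap, which gave the 28, and 0.219% with a 5 kb gap. For H3K4me1, 2 members stayed longer with a 5 kb gap (0.635% of all genes), 26 with any gap (25.1%) and 0 by limma. Between 15 and 26 were longer when 1 line was left out (7.86 to 29.7% of all genes). Shorter H3K4me1 was called at 5 members with 50 kb flanks (10.9% of all genes), 4 with any gap (14.7%) and 1 to 6 without 1 line (8.72 to 15.2%). It was called at 0 at gene ends (2.72%), at q of 0.001 or less (5.35%), at equal covered length (5.90%), with a 5 kb gap (3.66%) and by limma. Shorter H3K4me2 was called at 4 members with 50 kb flanks (12.4% of all genes), 5 with any gap (25.4%), and 0 to 2 without 1 line (9.18 to 11.5%). For H3K27me3, limma called 0 shorter and 0 longer, and without 1 line 20 to 34 were shorter and 1 to 7 longer. Longer H3K27me3 was called at 0 members with 50 kb flanks (1.09% of all genes), at q of 0.001 or less (0.0457%) and with a 5 kb gap (0.114%). It was called at 2 at equal covered length (0.877%) and at 4 with any gap (2.13%). The H3K27me3 difference over all loci was -12.2 points at equal covered length, -29.0 points at q of 0.001 or less, -30.7 without 159-1 and -7.51 without 1014. As a percent of each list it turned to 1.44 points, and H3K27me3 at Irx1 turned to 0.552 kb at equal covered length. The H3K4me2 difference was 9.002 points at equal covered length. KDM6A stood in both control lines at 12 members at q of 0.001 or less. The causes were not tested. The percent of list setting, every alternative for the difference over all loci, and the comparison with genes rich in H3K27me3 were chosen after seeing the data. No paired analysis was possible because the mutant and control groups are different lines, whose replicate numbers pair nothing. Unknown depth limits every length, and longer or shorter cover cannot be told from a deeper or shallower library.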
